A study of Mus musculus with 18 samples.

Results

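The liver of mouse offspring whose dams ate a high protein diet in pregnancy was compared with the liver of control offspring at postnatal day 21. The comparison rests on 6 of the 18 arrays of the series: the 3 labelled as high protein (HP) in pregnancy at day 21 and the 3 labelled as control at day 21. These 6 arrays were taken by the sample labels, not by any measured value. The gene lists used below were chosen with earlier results of these data known, so their counts and medians are descriptions. All offspring belonged to DUK, an outbred mouse line bred from several outbred and inbred stocks. Control dams received 20% protein by weight in pregnancy and in lactation, and HP pregnancy dams received 40% in pregnancy and 20% in lactation. Another group of 3 arrays, HP lactation (20% in pregnancy, 40% in lactation), and the HP pregnancy and control groups at day 150 are used below only to show where this comparison differs. The diets were isoenergetic, and all groups were kept at 21 °C under 12 hours of light. At day 21, the HP pregnancy dams had thus been back on the control diet since the start of lactation.

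Each array carried RNA pooled from several livers, and the labels disagree on the number: 3 animals per pool in the sample descriptions, 4 in the extraction protocol for day 21, and 4 to 5 per dietary group in the design text. Pools of a group may therefore share animals; the design text gives 1 animal per litter. All p-values below describe the spread between pools and may be too small for animals or litters. Sex was not among the labels used here.

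Protein eaten in excess of need is broken down in the liver, where transaminases and dehydrogenases strip the nitrogen, the urea cycle disposes of it, and the carbon skeletons enter glucose and lipid synthesis. The liver of young rodents passes at weaning from milk, rich in fat, to solid food, and in the same weeks it begins to acquire the sex-dependent expression that pulses of growth hormone impose through STAT5b. The diet of the dam in pregnancy acts during fetal life, so a difference at day 21 is measured weeks after the exposure ended.

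Values are signals on a linear scale with the trimmed mean of every array set to 500.0 by the authors' software, and differences are in log2 units, HP pregnancy minus control, so that a positive value means a higher signal after HP in pregnancy. The liver label was checked against 17 tested hepatocyte markers, whose mean signals had a median of 35730 in control and 29352 in HP pregnancy pools, above the 99th percentile of any of the 6 arrays (15701 to 19913). Of 21 listed exocrine pancreas markers 2 passed the filter on low signal, and of 27 T and NK cell markers 4 did. Arrays correlated with r from 0.971 to 0.987 within the 2 groups and from 0.966 to 0.981 between them. The ratio of 3' to 5' signal of Gapdh, a sign of RNA integrity, ran from 0.84 to 0.99 in control and from 0.84 to 0.98 in HP pregnancy pools, and that of Actb from 2.16 to 3.07 and from 1.96 to 3.15. Control replicate 2 stood apart: its Xist signal was 7343, against 47.2 to 79.4 in the other 5 arrays. Xist is transcribed from the inactive X chromosome. Values without this pool are given for the sex-biased lists and for some of the other named differences. A difference given without such a value may also have moved.

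No gene passed an adjusted p of 0.05 in limma among 11018 tested (0 called, 0%). At an unadjusted p under 0.05 there were 724 genes higher (6.57%) and 376 lower (3.41%) after HP in pregnancy. All 3 HP pregnancy pools lay above all 3 control pools in 1157 genes (10.5%) and below them in 853 (7.74%). Leaving out control replicate 2 took the unadjusted counts to 433 higher and 238 lower. With the 75th percentile of every array made equal the split turned, to 416 higher and 672 lower. The median difference over all genes was 0.01, and 5655 of 11018 differences were positive.

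The differences had a slope with signal. With the genes put in 10 classes of equal size by mean signal, the class of the highest signal had 140 genes lower and 23 higher at an unadjusted p under 0.05 and a median difference of -0.13. In class 8 of 10 the counts were 29 lower and 133 higher, with a median of 0.03. The 99th percentile of signal was lower in the HP pregnancy arrays (15701 to 17018) than in the control arrays (17713 to 19913), with no overlap. After quantile normalization, which gives every array the same distribution of signal, the median of the highest class was 0.00. Values under both scalings therefore stand side by side for the abundant liver transcripts.

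Carmil2, an actin regulator also called RLTPR that serves co-stimulation in T cells, had the smallest p of any gene. Its signal was 135, 129 and 128 in the control pools and 256, 299.8 and 258 in the HP pregnancy pools, a difference of 1.05 (SE 0.17, adjusted p = 0.071). The groups were far apart and narrow within themselves, and leaving out any array kept the difference between 0.97 and 1.09. It passed the threshold in 3 alternative fits (adjusted p = 0.038 with the median over all kept probe sets, 0.017 without the trend and 0.0071 with array weights). Carmil2 had no second probe set above the filter, and whether its probe set also reads other transcripts was not tested.

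Itgav, the alpha V chain of the integrins that bind vitronectin and latent TGF-beta, was at 2779, 1857 and 1777 in control and 4358, 3274 and 3184 in HP pregnancy pools. The difference was 0.77 (SE 0.17, adjusted p = 0.26), and the lowest HP pregnancy pool lay above the highest control pool. Among 38 tested integrins and actin regulators the unadjusted p was under 0.05 in 5 genes higher and 2 lower, against 6.57% and 3.41% of all genes. The list was chosen with earlier results of these data known, and the 5 include Carmil2 and Itgav. The count is therefore no support beyond those genes. The list median was 0.06, and 0.01 over all genes; without control replicate 2 it was 0.015. Besides Carmil2 and Itgav, the higher ones included Diaph2, a formin that elongates actin filaments (1079, 616 and 1002 against 1704, 1302 and 1376, a difference of 0.73, and 0.48 without control replicate 2); its 1 other kept probe set had the opposite sign. The lower ones were Itga7, a laminin receptor chain (-0.57), and Cfl1, the actin-severing cofilin (-0.26), whose 1 other kept probe set had the opposite sign. Of the 38 differences 20 were positive.

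Slc4a4, the sodium bicarbonate cotransporter of the basolateral membrane, was at 2519, 2909 and 3221 in control and 4715, 3928 and 4299.6 in HP pregnancy pools, a difference of 0.58 (SE 0.13, adjusted p = 0.26). Its 3 other kept probe sets had the same sign. Ptprc, which encodes CD45 and is carried by leukocytes and not by hepatocytes, was at 522, 469.9 and 548 against 984, 806 and 718, a difference of 0.69 (SE 0.16, adjusted p = 0.26). In both genes every HP pregnancy pool was above every control pool. The remaining genes with the smallest p on the higher side were a set of regulators at moderate signal: the zinc finger genes Zfp644 (0.76) and Zfp266 (0.69), the MAP kinase kinase kinase Map3k2 (0.73), the microtubule proteins Map7 (0.62) and Togaram1 (0.54), Lztfl1, a partner of the ciliary BBSome (0.53), and the cohesin subunit Stag2 (0.60). Lysmd3 (0.67), Inafm2 (0.57) and Rnf141 (0.50) completed the group. Their adjusted p-values lay at 0.26 or 0.27, and the other 2 kept probe sets of Rnf141 had the opposite sign.

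On the lower side, Npr2, the guanylyl cyclase receptor of C-type natriuretic peptide, had the smallest p. Its signal was 107, 123 and 139 in control and 58.3, 52.4 and 76.9 in HP pregnancy pools, a difference of -0.99 (SE 0.22, adjusted p = 0.26). Samm50, the core of the machinery that inserts barrel proteins into the outer mitochondrial membrane, was at 12365, 12087 and 12906 against 8734, 9410.0 and 9269, a difference of -0.45 (SE 0.10, adjusted p = 0.26). Both were tight within groups and without overlap, and both kept their sign in every alternative fit. For Samm50, among the abundant transcripts, quantile normalization left -0.33.

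Agt encodes angiotensinogen, the secreted precursor of angiotensin, of which the liver is the main source. It was at 13611, 15255 and 13509 in the control pools and 10081, 10482 and 9859.9 in the HP pregnancy pools, and the difference was -0.48 (SE 0.13, adjusted p = 0.28). Every HP pregnancy pool was below every control pool by a margin wider than the spread inside either group, and the value was -0.34 after quantile normalization. Other genes with small p on this side were Eif3f, a subunit of a translation initiation factor (-0.47), Ndufb10 of respiratory complex I (-0.43), Mrpl52 of the mitochondrial ribosome (-0.52), Clptm1l (-0.38), Pkig, an inhibitor of protein kinase A (-0.44), Armc5 (-0.73), Ldlrad3 (-1.01) and Pinx1, an inhibitor of telomerase (-0.73). Anapc1 (-0.42) and Arpp19 (-0.40) also belonged to it, but over all their kept probe sets the median was 0.16 and 0.20.

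**Figure D1:**
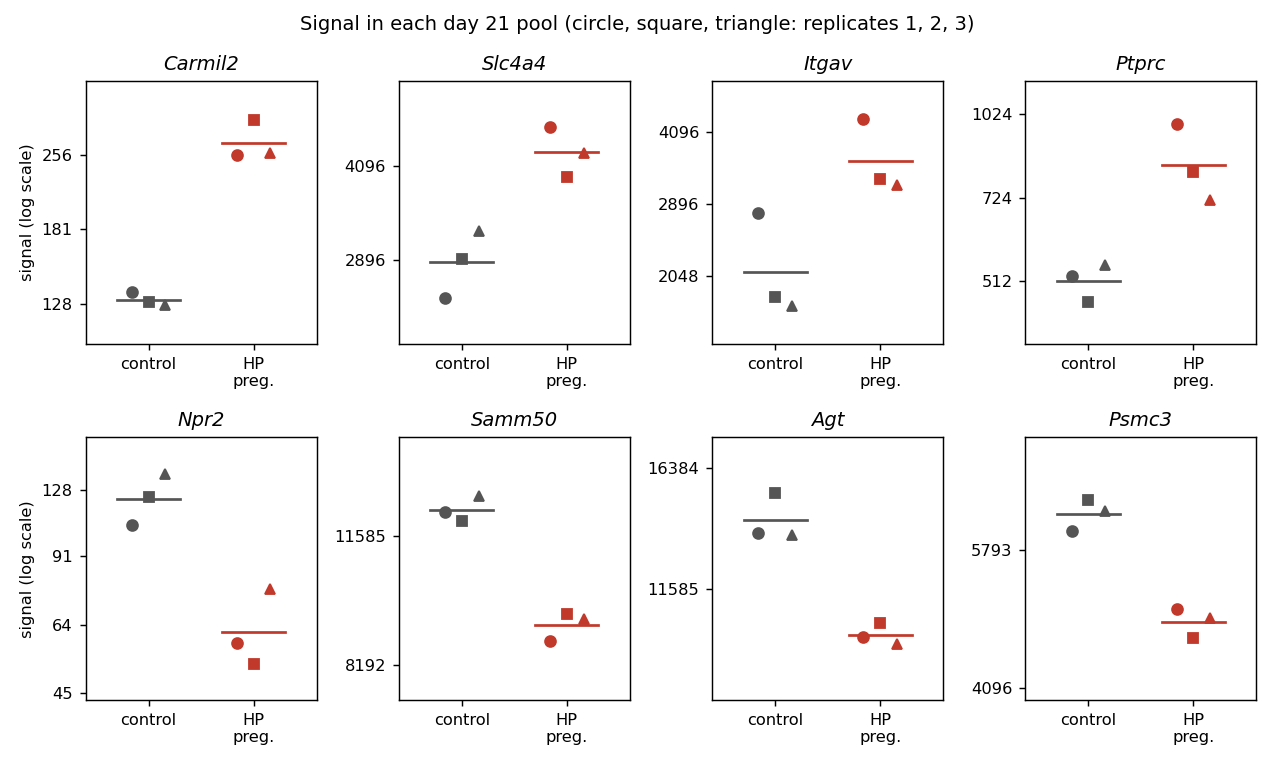
Signal (log axis) of 8 genes in the 3 control and 3 HP pregnancy pools of day 21, 1 symbol per pool, with a line at the group mean of log2 signal. Carmil2, Slc4a4, Itgav and Ptprc had every HP pregnancy pool above every control pool, and Npr2, Samm50, Agt and Psmc3 every one below; none passed an adjusted p of 0.05.

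Several of the largest differences were read at low signal. Plekhh3 was at 29.1, 24.1 and 23.7 in control and 83.9, 160.4 and 138 in HP pregnancy pools (2.27), Vmn1r65 had 1.76 (1.10 without control replicate 2) and Brdt, a testis bromodomain gene, 1.33. Ms4a1, the B cell antigen CD20, was at 58.8, 6.6 and 56.3 in control and 77.7, 116 and 125 in HP pregnancy pools; its difference of 1.90 became 0.85 without control replicate 2. Malt1, the protease that CARD proteins activate upstream of NF-kappaB, was at 66.3, 49.9 and 176 against 182, 208 and 190.4. Its difference was 1.21 (SE 0.33, adjusted p = 0.28), and without control replicate 3, the highest of its group, it was 1.75 and passed (adjusted p = 0.025). Without control replicate 2 it was 0.84, the lowest value with an array left out. At higher signal, Egr1, an immediate early transcription factor, was at 1674, 2905 and 3898 against 5232, 7331 and 5294. Its difference was 1.14 (adjusted p = 0.49). The 31 immediate early genes tested had a median of 0.02, and -0.10 without control replicate 2.

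Cyp26a1, which degrades retinoic acid and is itself one of its targets, had the lowest difference of all genes tested. Its signal was 108, 266 and 231 in control and 78.8, 7.5 and 68.9 in HP pregnancy pools, -2.45 (SE 0.69, adjusted p = 0.29); the value lay between -3.05 and -1.35 with an array left out. HP pregnancy replicate 2 was far below the rest, and the other HP pregnancy pools were also below the lowest control pool. Alas1, the rate-limiting enzyme of heme synthesis, was at 3757, 6491 and 6215 against 2792, 3593 and 1873, a difference of -1.0 without overlap (adjusted p = 0.45). Acnat2, an acyltransferase that conjugates acyl groups to amino acids, was at 3387, 3569.9 and 3226 against 2456, 1518 and 1959 (-0.81). Sncb (-1.86), Nol3 (-1.67) and Hif3a (-0.80) were read at control signals between 85.9 and 135 and did not pass. With an array left out Nol3 ran from -2.25 to -0.57 and Sncb from -2.58 to -1.04; their HP pregnancy pools were at 70.8, 77.4 and 7.5 and at 9.9, 83.6 and 35.5.

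Some genes with higher expression in the livers of adult males than of females had large differences. Hsd3b5, a hydroxysteroid dehydrogenase of the male mouse liver, was at 579, 275 and 771 in control and 1135, 2349 and 1987 in HP pregnancy pools. The difference was 1.81 (SE 0.42, adjusted p = 0.27), or 3.51-fold, with the 3 HP pregnancy pools above all controls. It was 1.38 without control replicate 2, the pool with Xist signal, which was the lowest of the controls. Mup10, a major urinary protein gene that was named by size and is not in the list below, was at 756, 724 and 1461 against 1946, 2587 and 3205, a difference of 1.45 (SE 0.36, adjusted p = 0.28). Major urinary protein genes are near-identical copies, and a probe set may read more than its named one. Cyp4a12a, a fatty acid and arachidonate hydroxylase induced by androgen, was at 580.1, 710.4 and 814 against 839.9, 1556 and 1664 (0.90, adjusted p = 0.36). Slco1a1, which takes organic anions up from the blood, was at 12842, 11246 and 12161 against 14428, 15283 and 17014 (0.36, adjusted p = 0.42). In these 4 genes the pools did not overlap, and no gene passed.

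The pattern did not run through the whole list. Of 21 tested male-biased genes 16 had positive differences, 4 of them at an unadjusted p under 0.05, against 2 negative at that level. The shares over all genes were 6.57% higher and 3.41% lower. The list median was 0.20, 0.24 after quantile normalization, 0.11 without control replicate 2, and 0.01 over all genes. Mup3 was at 24295, 17111 and 25716 against 23654, 21185 and 25360.1, a difference of 0.08, and Elovl3, a fatty acid elongase, at 616, 302 and 272 against 305, 462 and 384 (0.03). In both genes the groups overlapped fully. Gstp1, a glutathione transferase (-0.34), and Cyp2d9 (-0.28) were lower, but these are high-signal transcripts and had -0.07 and -0.10 after quantile normalization. Egfr, the receptor of epidermal growth factor, had 0.53 and 0.26 without control replicate 2.

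Of 24 tested female-biased genes 20 had negative differences and none had an unadjusted p under 0.05, with a median of -0.28, and -0.30 after quantile normalization. Without control replicate 2 the median was -0.24 and 9 of 24 differences were positive. The HP pregnancy pools were unlike each other here: their list medians against the control mean were -0.06, -0.23 and -0.58. Sult2a2, a hydroxysteroid sulfotransferase, was at 17938, 18255 and 19291 in control and 17404, 9130.4 and 7905 in HP pregnancy pools. Replicate 1 was at the control level and replicates 2 and 3 were far below it. Sult1e1, the estrogen sulfotransferase, was at 146, 184 and 993 against 212, 71.8 and 65.2, a difference of -1.59 (SE 0.96, adjusted p = 0.6) that was -0.72 without control replicate 3. Cyp2b10, a target of the receptor CAR, was at 1002, 852 and 2874 against 2893, 462 and 319, with the spread inside each group larger than the difference of -0.84. Fmo2 (-0.82) and Cyp2b13 (-0.96) overlapped between groups as well.

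**Figure D2:**
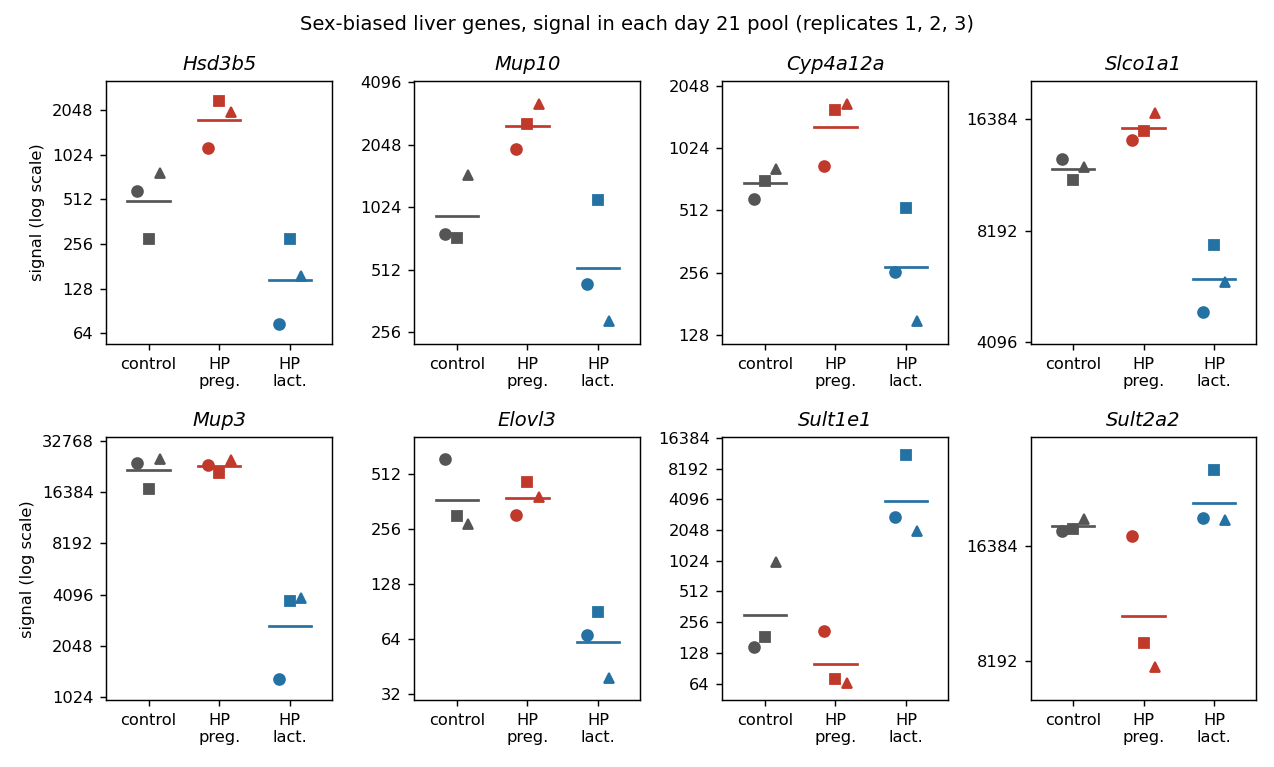
Signal (log axis) of 5 male-biased genes, Mup10 and the female-biased Sult1e1 and Sult2a2 in control, HP pregnancy and HP lactation pools of day 21, 1 symbol per pool, with a line at the group mean of log2 signal. In Hsd3b5, Mup10, Cyp4a12a and Slco1a1 the 3 HP pregnancy pools lay above all control and HP lactation pools; in Mup3 and Elovl3 they overlapped the control pools.

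Male-biased promoters are shown because growth hormone acts on many such genes through STAT5b, whose sites have the core TTCNNNGAA, a palindrome that reads alike on both strands. The windows run from 250 bases before to 50 bases after the annotated start, in RefSeq's annotation of GRCm38.p6, 5' to 3' on the gene's strand. Of the 21 male-biased genes 16 had such windows, 18 in all, of which 1 held the core (5.56%). The share was 9.09% (2 of 22) for the female-biased genes and 8.3% (2726 of 32851) for all promoters. The 1 match, in capitals, was in C8a, a subunit of the terminal complement complex (17539, 11249 and 11923 against 16491, 16753 and 16273, a difference of 0.31, and 0.19 without control replicate 2). Hsd3b5 lies at chr3:98645485-98645784, minus strand, Slco1a1 at chr6:141946913-141947212, minus strand, and C8a at chr4:104876349-104876648, minus strand.
Hsd3b5: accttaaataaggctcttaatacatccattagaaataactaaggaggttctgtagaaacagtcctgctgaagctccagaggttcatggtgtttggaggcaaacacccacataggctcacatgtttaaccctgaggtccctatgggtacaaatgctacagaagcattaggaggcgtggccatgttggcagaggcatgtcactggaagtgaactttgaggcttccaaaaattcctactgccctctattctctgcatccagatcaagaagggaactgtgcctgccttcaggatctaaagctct
Slco1a1: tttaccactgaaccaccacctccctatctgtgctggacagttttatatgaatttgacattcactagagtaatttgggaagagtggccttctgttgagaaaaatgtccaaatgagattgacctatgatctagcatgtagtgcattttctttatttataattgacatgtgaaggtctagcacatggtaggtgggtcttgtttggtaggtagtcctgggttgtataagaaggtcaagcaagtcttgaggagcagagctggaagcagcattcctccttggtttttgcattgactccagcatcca
C8a: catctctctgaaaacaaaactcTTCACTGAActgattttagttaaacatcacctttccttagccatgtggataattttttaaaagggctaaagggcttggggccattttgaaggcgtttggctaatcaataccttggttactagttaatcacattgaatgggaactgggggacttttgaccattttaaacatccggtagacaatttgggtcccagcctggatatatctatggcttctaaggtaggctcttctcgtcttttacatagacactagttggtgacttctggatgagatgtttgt
These windows hold no distal element, and the absence of the letters says nothing of the factor.

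Most markers of Kupffer cells and other macrophages had positive differences. Of 28 tested markers 25 had positive differences, 8 of them at an unadjusted p under 0.05, against 6.57% of all genes, and none negative at that level. The median was 0.23, and 0.20 after quantile normalization, against 0.01 over all genes. Timd4, the phosphatidylserine receptor of resident Kupffer cells, was at 239, 283 and 309 in control and 429.8, 456 and 371 in HP pregnancy pools (0.60, adjusted p = 0.42). Csf1r, the receptor on which macrophages depend for survival, was at 4124, 4370.2 and 4032 against 5951, 5352 and 4631 (0.34); 1 of its 2 other kept probe sets had the opposite sign. Timd4 and Csf1r were both separated between groups. In bulk liver, fewer cells of a type and less RNA per cell cannot be told apart, and the same holds for more.

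Mpeg1, a pore-forming protein of phagocytes, was at 1200.5, 972 and 1139.7 against 1795, 1736 and 1323 (0.54, SE 0.17, adjusted p = 0.32). Folr2, a folate receptor of resident macrophages, was at 338, 237 and 234 against 375, 635 and 402 (0.78), and Clec4n, the C-type lectin Dectin-2, at 189, 214 and 158 against 408, 294 and 238 (0.72). Every HP pregnancy pool was above every control pool in these genes. Cd5l, a secreted macrophage protein (0.45), Adgre1, a classical macrophage surface receptor (0.48), and the mannose receptor Mrc1 (0.34) had an unadjusted p under 0.05 as well. At the lower end stood Nr1h3, the oxysterol receptor LXR alpha, which hepatocytes also carry (-0.23, and -0.11 without control replicate 2).

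The pools did not share this equally. Against the control mean, the median over the 28 markers was 0.45 in HP pregnancy replicate 1, 0.37 in replicate 2 and 0.02 in replicate 3, while the control pools lay between -0.05 and 0.06. Without HP pregnancy replicate 3 the median difference was 0.42, and without replicate 2 it was 0.16. After HP in lactation the same markers had a median of -0.05 from control, and no marker passed in the direct comparison of the HP groups.

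**Figure D3:**
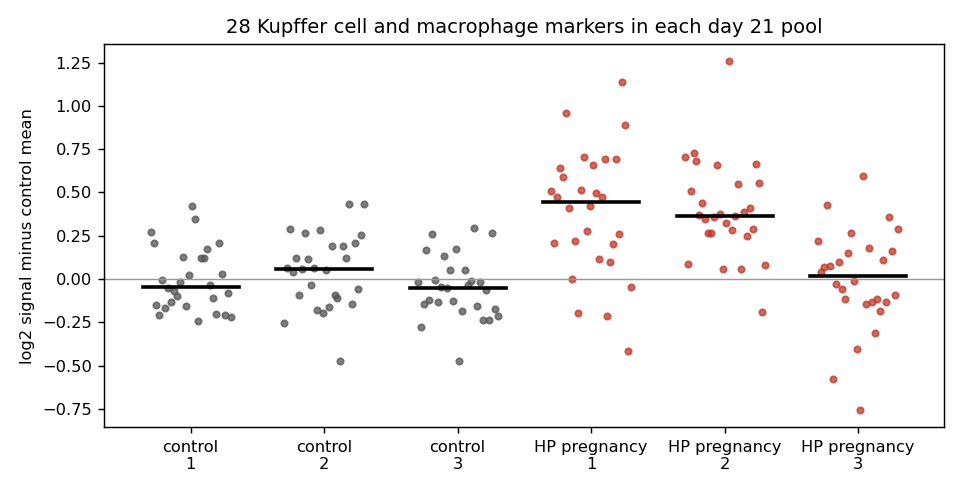
Log2 signal minus the control mean for 28 Kupffer cell and macrophage markers in each of the 6 pools, 1 point per marker, with a black line at the pool's median. The medians were 0.45 and 0.37 in HP pregnancy replicates 1 and 2 and 0.02 in replicate 3, against -0.05 to 0.06 in the control pools.

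Endothelial markers had a smaller displacement: 23 of 32 were positive, with a median of 0.13, and 0.08 after quantile normalization. At an unadjusted p under 0.05 there were 3, a share near the 6.57% of all genes. The 3 were Mrc1, which liver sinusoidal endothelium also expresses, Ptprb, a phosphatase of the vascular lining (0.29, 0.18 without control replicate 2, and -0.025 with the median over all kept probe sets), and Stab2, the hyaluronan scavenger receptor of sinusoids (0.31). HP pregnancy replicate 1 had the highest pool median, at 0.28, against 0.09 and 0.07. Of the 11 B and plasma cell markers tested 8 were positive, with a median of 0.19, and 0.34 without control replicate 2. The 31 stellate cell and matrix markers had a median of -0.02, and -0.093 without it. The part of cell composition in the differences named above was not tested.

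Hepatocyte markers went the other way on the deposited scale. All 17 differences were negative, 5 at an unadjusted p under 0.05, with a median of -0.28, but the median after quantile normalization was -0.02. Over all genes 3.41% were lower at that level, and in the highest signal class 140 of 1102. Asgr1, a chain of the asialoglycoprotein receptor, was at 14733, 15604 and 13138 against 11714, 11381 and 11774 (-0.32), and -0.19 after normalization. Asgr2, the other chain, was at 1718, 1484 and 1622 against 1237, 1305 and 914, with -0.49 and -0.55. Ahsg, the plasma protein fetuin-A, had -0.34 and -0.08. The receptor chains thus kept more of their difference than Ahsg did.

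The same dependence on scaling held for the lists of abundant housekeeping transcripts. Cytosolic ribosomal proteins had 38 of 40 negative differences, 14 at an unadjusted p under 0.05, and a median of -0.26 that became -0.03. In the highest signal class 140 of 1102 genes were lower at that level, and 3.41% of all genes. Rps18 (-0.32, then -0.04) and Rps29 (-0.33, then -0.06) were typical. Respiratory complex I went from -0.18 to -0.01 over 33 genes, complexes II to IV from -0.20 to -0.04 over 24, and the ATP synthase from -0.20 to -0.03 over 16; without control replicate 2, complexes II to IV had -0.13 on the deposited scale. Complement and coagulation factors (42 genes, 10 lower and 1 higher at an unadjusted p under 0.05, against 3.41% and 6.57% of all genes) went from -0.16 to 0.00, and acute phase and plasma proteins (40 genes, 7 lower) from -0.27 to -0.05. Single members kept more: F12, coagulation factor XII, had -0.39 and -0.27, and Proc, the anticoagulant protein C, -0.33 and -0.17.

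Most proteasome subunits had negative differences, with a negative median under both scalings. Of 43 tested genes 37 had negative differences, 9 of them at an unadjusted p under 0.05, against 3.41% of all genes. The subunits had a median control signal of 6007. In signal classes 9 and 10 of 10, 56 and 140 of 1102 genes each were lower at that level. In 19 of the 43 all HP pregnancy pools lay below all control pools, against 7.74% of all genes. The median difference was -0.17, and -0.16 after quantile normalization. Psmc3, one of the ATPases that unfold substrates at the base of the regulatory particle, had the smallest p of these: it was at 6074, 6567 and 6382 in control and 4999, 4647 and 4883 in HP pregnancy pools (-0.39, SE 0.11, adjusted p = 0.28), and the ATPases Psmc1 and Psmc2 had -0.34 and -0.34. Psmd3 of the lid was at 2403, 2423 and 2507 against 1731, 1869 and 1801 (-0.44, adjusted p = 0.33), and Psmd4, a ubiquitin receptor, at 4732, 5574 and 5563 against 4171, 3829 and 3815 (-0.42). In these 5 genes the groups did not overlap. Psmd13 had -0.52, but the median over its kept probe sets was 0.05. Psmg2, an assembly chaperone, marked the upper end at 0.23. The pool medians were -0.18, -0.18 and -0.13 in HP pregnancy and -0.08 to 0.08 in control, and without control replicate 2 the list median was -0.12. After HP in lactation the same list had a median of -0.12 from control.

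**Figure D4:**
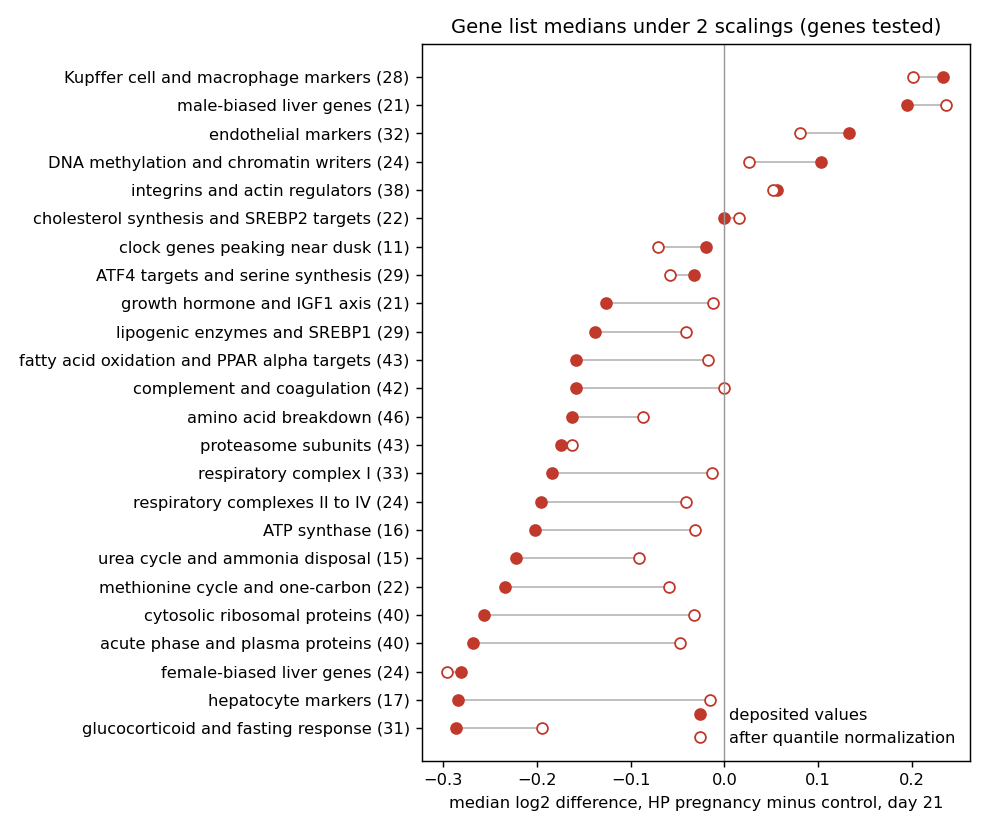
Median log2 difference (HP pregnancy minus control, day 21) over the tested genes of 24 lists, on the deposited scale (filled) and after quantile normalization (open), with the number of genes in brackets. The ribosomal, respiratory, plasma protein and hepatocyte lists moved to near 0 after normalization, while the proteasome, female-biased, male-biased and macrophage lists kept their medians.

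Genes of the glucocorticoid and fasting response split the HP pregnancy group. Of 31 tested genes 28 had negative differences, 7 at an unadjusted p under 0.05, against 3.41% of all genes. No positive difference reached that level. The genes had a median control signal of 5591. In signal classes 9 and 10 of 10, 56 and 140 of 1102 genes each were lower at that level. The median difference was -0.29, and -0.20 after quantile normalization. Against the control mean, the median was 0.12 in HP pregnancy replicate 1, -0.43 in replicate 2 and -0.54 in replicate 3. The control pools ran from -0.17 to 0.09. Replicate 1 was thus above the highest control and replicates 2 and 3 below the lowest. Without replicate 1 the list median was -0.53, and without replicate 2 it was -0.19.

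Ddit4, an inhibitor of mTORC1 induced by glucocorticoid and by stress, showed the split most: it was at 1579.8, 848 and 4136 in control and 3314, 222 and 311 in HP pregnancy pools. Its difference of -1.53 (SE 0.90, adjusted p = 0.59) was within the spread, and ran from -2.75 to -0.80 with an array left out. Lpin1, a phosphatidate phosphatase and coactivator of the fasted liver, was at 7580.5, 3529 and 7300.1 against 6077, 2108 and 1761 (-1.04). Pck1, the enzyme that commits oxaloacetate to gluconeogenesis, was at 20528, 17795 and 21885 against 18206, 13306 and 10484 (-0.55, SE 0.20, adjusted p = 0.38, -0.40 after quantile normalization). Of the 2 other kept probe sets of Pck1, 1 had the opposite sign. Klf9, a receptor target that rises with corticosterone, had -0.26 and Hsd11b1, which regenerates active glucocorticoid, -0.25; both were near 0 after normalization (-0.05 and -0.03). Bcl6, a repressor of the fed liver, marked the upper end at 0.62. Agt, described above, also belongs to this list and did not share the split: it was below every control in all 3 HP pregnancy pools.

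Single enzymes of nitrogen metabolism had the same split, but their lists did not: the pool medians of the urea cycle were -0.17, -0.25 and -0.25 in HP pregnancy replicates 1 to 3, and those of amino acid breakdown -0.09, -0.11 and -0.15. Tat, the tyrosine aminotransferase induced by glucocorticoid, was at 14312, 10179 and 19669 in control and 14847, 6713 and 7569 in HP pregnancy pools (-0.64). Oat, ornithine aminotransferase, was at 6539, 7985 and 9840.5 against 7569.8, 4451 and 3783 (-0.67), and Ass1, argininosuccinate synthase of the urea cycle, at 516, 266 and 745 against 805, 184 and 137 (-0.78, and -1.18 without control replicate 2). In each of these, replicate 1 was within or above the control range and replicates 2 and 3 below it. Ass1 was read by a single kept probe set at a mean control signal of 467.5. Its neighbours in the urea cycle, Cps1 and Arg1, were at 30425 and 29637. Whether the probe set reads the main Ass1 transcript was not tested. Nnmt, which methylates nicotinamide, was at 102, 102 and 1067 against 456, 51.9 and 27.6 (-1.36); control replicate 3 and HP pregnancy replicate 1 were both high.

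**Figure D5:**
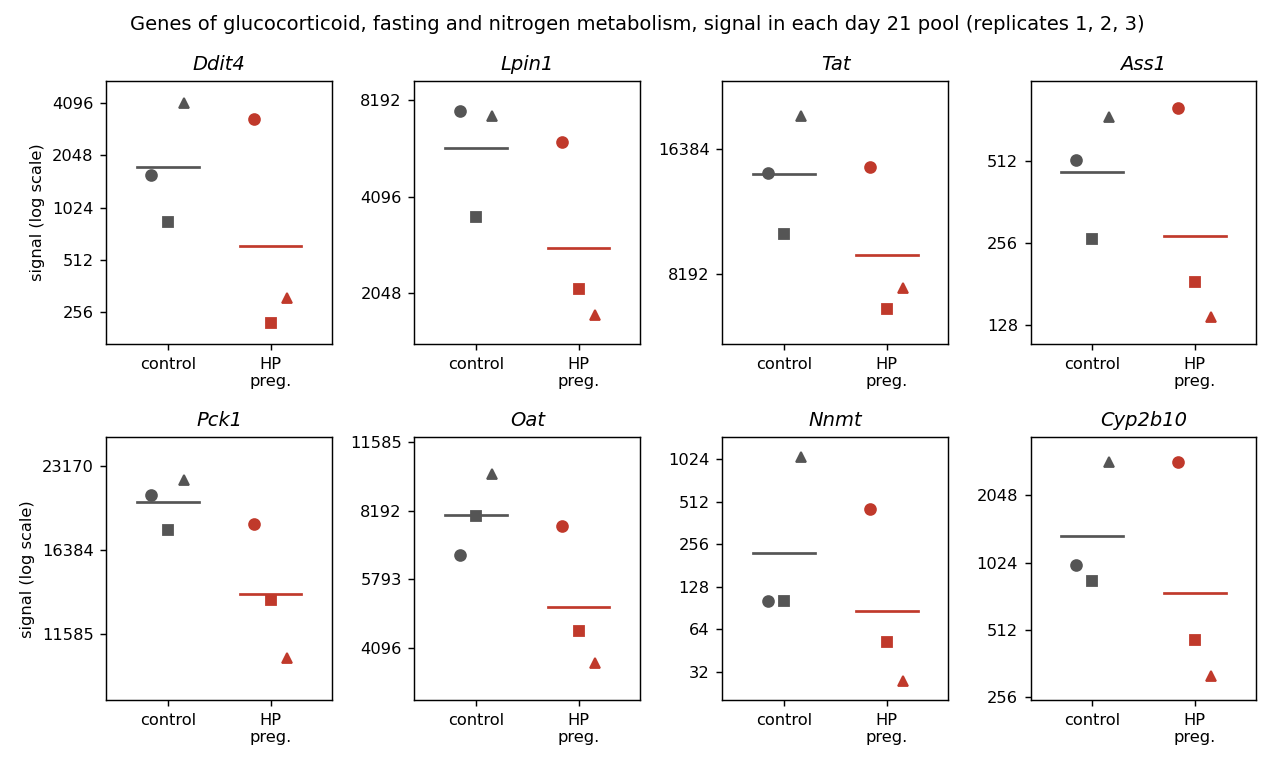
Signal (log axis) of 8 genes of glucocorticoid response, fasting, amino acid and drug metabolism in the 3 control and 3 HP pregnancy pools of day 21, 1 symbol per pool, with a line at the group mean of log2 signal. In all 8, HP pregnancy replicate 1 was the highest of its group, and replicates 2 and 3 lay below every control pool.

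The urea cycle and ammonia disposal list had 15 of 15 negative differences on the deposited scale, 2 at an unadjusted p under 0.05. Over all genes 3.41% were lower at that level, and in the highest signal class 140 of 1102. The list median was -0.22, and -0.09 after quantile normalization. Gpt, alanine aminotransferase, was at 7012, 7614 and 7765 in control and 5641, 6132 and 6168 in HP pregnancy pools (-0.32, adjusted p = 0.41), and kept -0.27 after normalization. Its 1 other kept probe set had the opposite sign. Arg1, arginase, was at 29315, 31750.2 and 27968 against 23604, 21887 and 24648, with -0.34 and -0.09. Nags, which makes the activator of the cycle's first enzyme, was at 1357, 1654 and 1376 against 1157, 1142 and 1294 (-0.28, -0.33 after normalization). Cps1, that first enzyme, was at 32388, 27256 and 31905 against 29616, 24039.6 and 25673, and its difference of -0.21 turned to 0.06. Glul, glutamine synthetase of the pericentral cells, had -0.21 and -0.08. No member was higher in the HP pregnancy pools on the deposited scale, and none passed.

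Amino acid breakdown genes were negative in 35 of 46 cases, 3 of them at an unadjusted p under 0.05. Over all genes 3.41% were lower at that level, and in signal classes 9 and 10 of 10, 56 and 140 of 1102 each. The list median was -0.16, -0.09 after normalization and -0.11 without control replicate 2. Ftcd, which passes the formimino group of histidine to folate, was at 8836, 9484 and 10659 against 8574, 7299.9 and 7290.2 (-0.32, -0.22 after normalization). Tdo2, the tryptophan dioxygenase, had -0.25 and turned to 0.02. Among 22 genes of the methionine cycle and one-carbon metabolism, 5 were lower and 1 higher at an unadjusted p under 0.05. The shares over all genes were 3.41% and 6.57%. The median of these 22 genes was -0.23, and -0.06 after normalization. Gnmt, which removes surplus S-adenosylmethionine, was at 25924, 29821 and 25965 in control and 21796, 17916 and 21121 in HP pregnancy pools (-0.43, -0.21). Shmt2, the mitochondrial serine hydroxymethyltransferase, was at 3458, 3922 and 3594 against 2922, 2989 and 3036 (-0.29, -0.28); 2 of its 3 other kept probe sets had the opposite sign. Bhmt (-0.34, -0.04), Ahcy (-0.36, -0.12), Aldh1l1 (-0.26, -0.12) and Mat1a (-0.27, -0.01) were separated between groups on the deposited scale. Shmt2 kept nearly all of its difference after normalization, Gnmt part of it, and the others less.

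Several genes of interest for maternal protein showed no difference beyond the spread of the pools. Asns, the ATF4 target that marks amino acid shortage, was at 628, 956 and 682 in control and 869.6, 815 and 1097 in HP pregnancy pools (0.31, 95% interval -0.60 to 1.21, and 0.49 without control replicate 2). The 29 ATF4 targets had a median of -0.03, and 0.01 without control replicate 2. Igf1, the hepatic growth factor, was at 18248, 16374 and 14702 against 12834, 16088 and 16339.5 (-0.13, interval -0.41 to 0.15), and 0.02 after normalization. The 3 other kept probe sets of Igf1 had the opposite sign, and the median over all kept probe sets was 0.06. Cyp7a1, the rate-limiting enzyme of bile acid synthesis, was at 1938, 1586 and 2244 against 1517, 1936 and 1098 (-0.37, interval -1.29 to 0.56). These intervals do not show equality, since those of Asns and Cyp7a1 are wide.

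The DNA methyltransferases had differences of both signs. Dnmt1, the maintenance enzyme, was at 484, 384 and 446 against 273, 387 and 361 (-0.37). Of its 2 other kept probe sets, 1 had the opposite sign, as had 1 of the 3 others of Dnmt3a. Dnmt3a, a de novo enzyme, was at 467, 318 and 466 against 494, 590.1 and 578 (0.43, and 0.24 without control replicate 2), and Dnmt3b at 418, 265 and 323 against 370.0, 500.0 and 467 (0.42, and 0.27). The 24 DNA methylation and chromatin genes had a median of 0.10, and 0.03 after normalization. Cholesterol synthesis genes had a median of 0.00 over 22 genes, with pool medians from -0.42 to 0.20 in control and from -0.28 to 0.34 in HP pregnancy. Lipogenic genes had -0.14 over 29 genes and fatty acid oxidation genes -0.16 over 43, which became -0.04 and -0.02. Clock genes that peak near dusk had -0.02 over 11 genes. Without control replicate 2 the medians were 0.018 for DNA methylation, 0.098 for cholesterol synthesis, -0.049 for fatty acid oxidation (17 of 43 positive, against 6 of 43 with it) and -0.084 for the clock genes.

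A direct comparison asked whether the liver at day 21 depends on when the dam ate the high protein diet. Between the HP groups, 99 genes were higher (0.899%) and 42 lower (0.381%) after HP in pregnancy at an adjusted p under 0.05. Of these 141 genes, 23 passed with each of 6 arrays left out in turn, and 14 passed under all 17 alternatives. With only the 6 arrays compared, 21 were higher and 13 lower. HP pregnancy and HP lactation were each also set against the same control pools, so their differences from control share those arrays and are given side by side only.

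Of the 21 tested male-biased genes 10 were higher after HP in pregnancy than in lactation at an adjusted p under 0.05, and none was lower. The shares over all genes at that threshold were 0.899% higher and 0.381% lower. Mup3 was at 23654, 21185 and 25360.1 in HP pregnancy and 1309, 3744 and 3913 in HP lactation pools, a difference of 3.12 (SE 0.29, adjusted p = 2.9e-05). Against control it was 0.08 after HP in pregnancy and -3.04 after HP in lactation. Slco1a1 was at 14428, 15283 and 17014 against 4946, 7496 and 5972 (1.36 with SE 0.14 and adjusted p = 9.3e-05), with 0.36 and -1.0 against control. Hsd3b5 was at 1135, 2349 and 1987 against 73.8, 275 and 155 (3.57 with SE 0.42 and adjusted p = 0.00024), with 1.81 and -1.76 against control. Elovl3 differed by 2.61 (SE 0.41, adjusted p = 0.0033), with 0.03 and -2.58. These 4 passed under all 17 alternatives. For Mup3 and Elovl3 the HP pregnancy pools were at the control level, and for Hsd3b5 and Slco1a1 they stood on the other side of control from the HP lactation pools.

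Cyp4a12a (2.24 with SE 0.31 and adjusted p = 0.00096) and Cyp7b1, the oxysterol hydroxylase (1.04 with SE 0.16 and adjusted p = 0.0028), passed with each array left out but not with the 6 compared arrays alone. Hsd3b2 (0.94 with SE 0.23 and adjusted p = 0.048) and C8a (0.83 with SE 0.17 and adjusted p = 0.023) lost the call without single pools, HP pregnancy replicate 2 among them. The male-biased C8b (0.83, adjusted p = 0.017) and Ugt2b1 (0.70, adjusted p = 0.023) also did not hold with each array left out. The female-biased Sult1e1 was lower, at 212, 71.8 and 65.2 against 2756, 11154 and 1997 (-5.31 with SE 0.96 and adjusted p = 0.01); it missed the threshold without HP pregnancy replicate 2 (adjusted p = 0.059) or replicate 3 (0.056). Rab32, a small GTPase (1.03 with SE 0.14 and adjusted p = 0.00094), and Mme, the membrane peptidase neprilysin (1.86 with SE 0.25 and adjusted p = 0.00094), were also higher under all alternatives.

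On the lower side, Ifrd1, a regulator induced by stress and growth signals, was at 955, 843 and 937 in HP pregnancy and 3526, 3324 and 2168 in HP lactation pools (-1.69 with SE 0.20 and adjusted p = 0.00024), and passed under all 17 alternatives. Abcc4, an efflux pump of the sinusoidal membrane, was at 179, 165 and 166 against 551, 686 and 515 (-1.77 with SE 0.25 and adjusted p = 0.0015). Bex1 (-2.86 with SE 0.49 and adjusted p = 0.0075) and Nop58, a core protein of box C/D snoRNPs (-0.97 with SE 0.17 and adjusted p = 0.0096), also passed. Both missed the threshold without HP lactation replicate 1 (adjusted p = 0.067 for each), and Nop58 also without HP pregnancy replicate 2 (0.054) or 3 (0.056). Against control these genes were near 0 after HP in pregnancy: -0.15, -0.22, -0.17 and -0.17, and that of Abcc4 was -0.015 without control replicate 2. The clock genes Per1 (-1.41 with SE 0.29 and adjusted p = 0.025), Per2 (-1.80 with SE 0.40 and adjusted p = 0.03) and the deubiquitinase Usp2 (-2.88 with SE 0.69 and adjusted p = 0.048) were lower after HP in pregnancy than in lactation, but these calls did not hold under several alternatives. Without the trend none of the 3 passed (adjusted p = 0.052, 0.065 and 0.1), and with single arrays left out Per1 lost the call in 4 of 6 cases, Per2 in 5 and Usp2 in 6. Of these, Usp2 was at 202, 255 and 344 in control, 164, 91.4 and 107 in HP pregnancy and 696, 954 and 967 in HP lactation pools.

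Some of the genes with the smallest p against control also differed from HP lactation on the same side. They were picked by their difference from control, and both comparisons use the same HP pregnancy pools. A difference on the same side is therefore partly built in and is no independent support. The difference from HP lactation was 0.60 (SE 0.13, adjusted p = 0.025) for Slc4a4 and 0.59 (SE 0.12, adjusted p = 0.018) for Rnf141. It was -1.0 (SE 0.22, adjusted p = 0.028) for Npr2, -0.43 (SE 0.10, adjusted p = 0.036) for Samm50 and -0.90 (SE 0.21, adjusted p = 0.037) for Pinx1. The HP lactation pools were near control in Slc4a4 (3164, 2814 and 2548), Npr2 (117, 144 and 110.4) and Samm50 (12941, 12965 and 11125). Each of these genes lost the call with at least 3 of the 6 arrays left out in turn, and Slc4a4 and Rnf141 also with the median over all kept probe sets (adjusted p = 0.95 and 0.83). Carmil2 (0.43 with SE 0.17 and adjusted p = 0.23) and Itgav (0.58 with SE 0.17 and adjusted p = 0.11) did not pass against HP lactation. In Carmil2 the HP lactation pools, at 209.5, 188.6 and 206.2, were also above every control pool, with a difference from control of 0.62.

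The day 150 arrays hold other pools from the same diets, and none is shared with day 21. The difference between HP pregnancy and control differed between the days in 2 of 11018 genes (0.0182%). Rassf4, a Ras-association protein, was at 94.1, 93.1 and 89.5 in control and 241, 162 and 116 in HP pregnancy pools at day 21 (0.84), and at 764, 832 and 722 and 282, 215 and 287 at day 150 (-1.57). The difference of differences was 2.42 (SE 0.35, adjusted p = 0.017). Tmie, a protein known from the mechanotransduction channel of hair cells, was at 380.4, 272 and 404 against 351, 511 and 352 at day 21 and at 133, 142 and 442 against 17.0, 19.3 and 8.3 at day 150, with 4.06 (SE 0.65, adjusted p = 0.035). The HP pregnancy pools of day 150 lay below the filter signal of 57.5, so the size of this value is not a measured fold; with 50 added to the signal it was 2.18 (adjusted p = 1). The other kept probe sets of both genes, 2 for Rassf4 and 1 for Tmie, had the opposite sign at day 21, and neither gene passed with the median over all kept probe sets. Both also missed the threshold without single arrays, among them control replicate 2 of day 21 (adjusted p = 0.071 for Rassf4 and 0.22 for Tmie).

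Across the 11018 genes, the differences at day 21 and at day 150 had a Pearson r of 0.34 and a Spearman rho of 0.44 (0.32 and 0.42 after quantile normalization), as a description: genes are not independent, and the same probe sets were read on both days. At day 150 the Gapdh 3' to 5' ratio ran from 1.30 to 1.79 in control and from 1.67 to 1.80 in HP pregnancy pools. That of Actb ran from 4.06 to 6.38 and from 6.07 to 6.5, above the 1.96 to 3.15 of these groups at day 21. Control replicates 1 and 3 of day 150, at 4.13 and 4.06, lay below every HP pregnancy pool of that day. The day 150 differences of genes named above were 0.80 for Carmil2, 0.46 for Itgav, 0.69 for Zfp266, 0.71 for Diaph2 and -0.59 for Agt. They were -0.11 for Npr2, 0.56 for Hsd3b5 and -0.23 for Cyp4a12a. The list medians at day 150 were 0.06 for the macrophage markers, -0.06 for the male-biased, -0.28 for the female-biased, -0.15 for the proteasome and -0.14 for the glucocorticoid and fasting genes. On the same deposited scale the hepatocyte markers had -0.17, respiratory complex I -0.15 and the ribosomal proteins -0.13 at day 150, and no normalized list medians were computed for that day. The difference of the list medians between days was not tested.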

How the data were processed

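Liver RNA pools were hybridised to arrays with 45101 probe sets. The values are intensities deposited by the authors on a linear scale, made with MAS5 in GCOS 1.4 per the submitters' processing notes; the trimmed mean was 500.0 on every array. Here log2 was taken with 0 added. Of the probe sets, 34945 named 1 gene symbol, 932 several and 9160 none, 64 were controls, and 34741 were matched by gene ID. A mean log2 signal of at least 5.85 (signal 57.5) was required, and the kept probe set with the highest mean stood for its gene (11018 genes).

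Group means of all 18 arrays were fitted in limma 3.58.1 (R 4.3.3; lmFit, eBayes with trend, two-sided, Benjamini-Hochberg over all genes, threshold 0.05), a procedure tested on simulated data; tables and figures used Python 3.11.15, pandas 2.3.3 and matplotlib 3.10.9. The gene lists and their members were chosen with earlier results of these data known. Genes were named by smallest p and largest difference among those with separated groups, by the leading and end members of each list, by the smallest p in the other comparisons, and from a short list of genes always given. List counts and medians carry no test. Alternatives were other filters, scalings and added constants, probe set medians, other variance models, array subsets and a replicate block. Replicate numbers were not taken as pairs: deviations of same-numbered control and HP pregnancy arrays correlated with r of 0.03, 0.07 and -0.09. The number of arrays limits the precision.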

Additional observations from a re-analysis of the deposited data

Results flagged for a closer look

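Rassf4 and Tmie passed the limma test of whether the difference between HP pregnancy and control differs between day 21 and day 150. For Rassf4 the value was 2.42 in log2 units (adjusted p = 0.017), from 0.84 at day 21 and -1.57 at day 150. For Tmie it was 4.06 (adjusted p = 0.035), from 0.20 at day 21 and -3.86 at day 150, with HP pregnancy pools of day 150 at 17.0, 19.3 and 8.3, below the filter signal of 57.5; with 50 added to the signal it was 2.18 (adjusted p = 1). Neither passed with the median over all kept probe sets (adjusted p = 1 for both), without the trend (0.051 for Rassf4 and 0.088 for Tmie) or with any control array of day 21 left out (0.056 to 0.071 and 0.056 to 0.22). The other kept probe sets of both had the opposite sign at day 21. No outlier test was run within the groups, which hold 3 arrays each.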

How the results depend on the processing

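The count of genes past the threshold against control was 0, and 1 (Carmil2) with the median over all kept probe sets, without the trend or with array weights; with an array left out it ran from 0 to 1. Genes at an unadjusted p under 0.05 were 416 higher and 672 lower with an equal 75th percentile, 574 lower with no filter and 601 lower with array weights. They were 478 higher without the 2 arrays with Xist signal. These were control replicate 2 of day 21 and HP lactation replicate 4 of day 150 (Xist signal 11644). With an array left out the counts ran from 433 to 870 higher and from 238 to 453 lower. Against HP lactation 41 genes were higher and 13 lower without the trend, 219 and 141 with array weights, 21 and 13 with the compared arrays alone, and 28 to 216 and 4 to 145 with an array left out. Between days 1 gene passed with no filter, with the filter at the 70th percentile, with 50 added, without the Xist arrays and with the replicate block, and 0 with the median over probe sets or without the trend; leaving out an array gave 0 to 2.

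Quantile normalization gave list medians of -0.091 for the urea cycle, -0.087 for amino acid breakdown, -0.059 for methionine, -0.018 for fatty acid oxidation, -0.033 for ribosomal proteins, -0.013 for complex I, -0.041 for complexes II to IV, -0.032 for ATP synthase, 0.00 for complement, -0.048 for acute phase and -0.015 for hepatocyte genes. An equal 75th percentile gave -0.30 for urea, -0.24 for amino acid breakdown, -0.31 for methionine, -0.11 for ATF4 targets, -0.25 for the proteasome, -0.27 for complexes II to IV, -0.28 for ATP synthase, -0.23 for complement and -0.34 for acute phase genes. Amino acid breakdown had -0.11 without the Xist arrays, methionine -0.18 with the median over probe sets, and ATF4 targets 0.029 with array weights. With an array left out, the medians ran from 0.08 to 0.30 for male-biased genes, 0.16 to 0.42 for macrophage and 0.027 to 0.15 for endothelial markers, -0.34 to -0.20 for urea, -0.18 to -0.11 for amino acid breakdown, -0.25 to -0.19 for methionine, -0.19 to 0.038 for lipogenic and -0.29 to -0.20 for acute phase genes. The cause was not tested. The other 375 of 408 list values moved by less than 1 SD between arrays.

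With the replicate block, 0 genes passed against control (743 higher and 383 lower at an unadjusted p under 0.05) and 81 higher and 31 lower against HP lactation; the arrays share only a number, not a source, per the labels. Of 127 genes named, the sign differed under at least 1 alternative in 14, among them Cps1, Igf1, Tdo2, Mup3, Elovl3, Psmd13, Ptprb, Rnf141, Anapc1 and Arpp19. The 3 arrays per group, pooled livers and unstated sex limit every comparison, and low signals vary more between arrays than high ones.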
